A study of Ovis aries with 6 samples.

Results

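Cofilin 1 (CFL1), calponin 1 (CNN1), tropomyosin 1 (TPM1), fast skeletal troponin C (TNNC2) and muscle glycogen phosphorylase (PYGM) are the actin and contractile genes described here in sheep skin. They are 5 of the 476 genes that the RefSeq mRNA accessions on the array name, and they were chosen from earlier results of the same breed comparison. Their breed differences are therefore given as a description, with a standard error (SE) and no p-value. The genes are read by 6 probes, which are all the probes of CNN1 (1 probe), TPM1 (1), TNNC2 (2) and PYGM (1) and the CFL1 probe A_70_P030291. The other CFL1 probe on the array, A_70_P030292, is given beside it.

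Skin was taken through its full thickness from the flank of 3 Aohan fine wool sheep, bred for fine wool, and 3 small tail Han sheep, a breed with coarse wool, all 12 months old. Each breed had 1 ram and 2 ewes that shared a sire, which of the animals was the ram is not given in the labels, and each sheep was hybridised to its own 1-colour Agilent array. The sire and the breed cannot be told apart, and neither can the scan session, since the 3 arrays of a breed carry 1 scan time that differs from the other breed's. Full-thickness skin holds epidermis, wool follicles, dermis, vessels and small muscles, and in such a sample fewer cells of a type and less RNA per cell cannot be told apart. Keratin genes of the wool follicle (KRT25, KRT27 and KRT35) and the dermal proteoglycan DCN were well above background on all 6 arrays.

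Actin filaments are built from actin subunits and are remodelled all the time. Cofilin severs filaments and returns subunits to the pool, while tropomyosin lies along the filament, stabilises it and controls the access of myosin. In smooth muscle, as in the arrector muscle of the follicle and in vessel walls, calponin binds actin and restrains the myosin motor. In fast striated muscle, troponin C is the calcium sensor that relieves the hold of tropomyosin on myosin access. Glycogen phosphorylase there breaks down glycogen to fuel contraction.

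In Aohan skin CFL1 and TPM1 gave a higher signal than in small tail Han skin, and CNN1 and TNNC2 gave a lower one. CFL1 was 4.46-fold higher at A_70_P030291, TPM1 was 1.89-fold higher and CNN1 was 2.47-fold lower. TNNC2 was 2.59-fold lower at A_70_P029961 and 1.93-fold lower at A_70_P029962, both dim probes, and PYGM was 1.27-fold lower. These values are log2 processed intensities minus the 75th percentile of the same array, and each difference is Aohan minus small tail Han. In a limma fit over all 12481 probes that were bright enough to test, 4 of the 6 probes fell under an adjusted p of 0.05 (Benjamini-Hochberg), here called passing, 2 higher and 2 lower in Aohan sheep, where 15.2% of all tested probes passed, 7.57% as higher and 7.6% as lower. The 3 Aohan sheep lay apart from the 3 small tail Han sheep at 6 of the 6 probes, and at 34.2% of all tested probes, 17.8% with Aohan higher and 16.4% with Aohan lower. Nothing is read from these counts, because the genes were picked from this contrast.

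**Figure D1:**
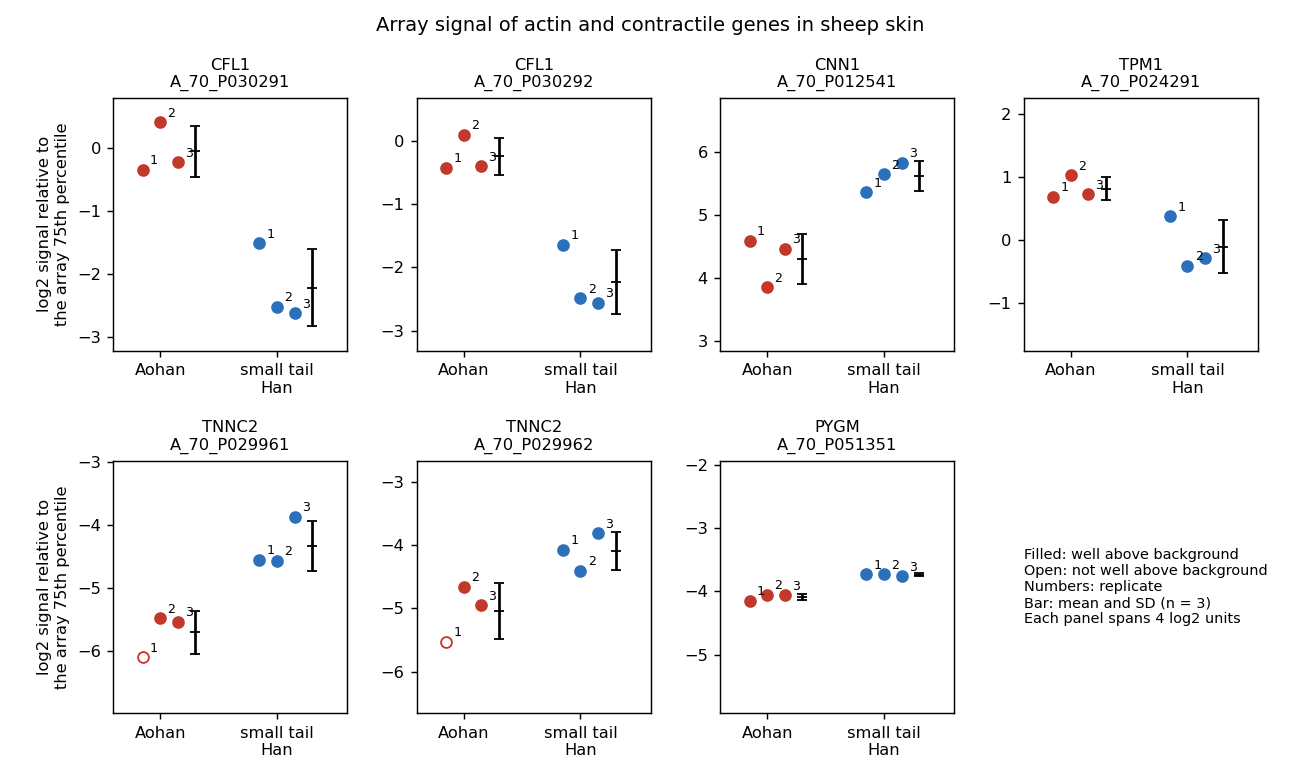
Log2 array signal relative to the array's 75th percentile (vertical axis, each panel spanning 4 log2 units around its own centre) of the individual sheep for 7 probes reading the 5 genes, with Aohan sheep left and small tail Han sheep right. Numbered points are replicates, open points are not well above background, and bars are mean and SD (n = 3). The breeds lie apart in every panel, from 0.25 log2 units at TNNC2 A_70_P029962 to 1.22 at CFL1 A_70_P030292.

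CFL1 had the largest difference of the 5 genes. Its intensity at A_70_P030291 was 869, 2712 and 964 in Aohan replicates 1, 2 and 3, against 810, 322 and 285 in small tail Han replicates 1, 2 and 3. Each Aohan sheep exceeded each small tail Han sheep before any scaling, although Aohan replicate 1 and small tail Han replicate 1 were close. Scaled to the 75th percentile, the log2 signal was -0.06 ± 0.40 in Aohan sheep and -2.21 ± 0.61 in small tail Han sheep (SD, n = 3 each), a difference of 2.16 (SE 0.31). With the normexp background correction, another way to remove the glow around a spot, the difference was 1.53, the lowest under any processing tried, and it still passed.

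The other CFL1 probe gave nearly the same picture. At A_70_P030292 the intensity was 824, 2195 and 856 in the Aohan sheep, against 740, 328 and 297 in the small tail Han sheep, and the log2 difference was 1.99 (SE 0.27), or 1.49 with normexp. The change at A_70_P030291 exceeded that at A_70_P030292 by 0.17. In each sheep the difference between both probes was small, 0.08 to 0.31 log2 units in Aohan sheep and -0.06 to 0.13 in small tail Han sheep, and the probes ranked the 6 sheep in the same order. Small tail Han replicate 1 stood above its breed at both CFL1 probes, and Aohan replicate 2 stood above its own.

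TPM1 was higher in Aohan skin, but by less. Its intensity was 1775, 4167 and 1864 in Aohan sheep, against 2995, 1385 and 1426 in small tail Han sheep. Before scaling the breeds overlapped, with small tail Han replicate 1 above Aohan replicates 1 and 3. After scaling the log2 signal was 0.81 ± 0.19 in Aohan sheep and -0.11 ± 0.42 in small tail Han sheep (SD, n = 3 each), a difference of 0.92 (SE 0.22), and the nearest sheep of the breeds were 0.31 log2 units apart. TPM1 makes many splice forms for muscle and other cells, and which of them the probe reads was not established here.

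The sheep that were highest for CFL1 and TPM1 within their breed were also the sheep with the brightest arrays. The 75th percentile of intensity was 1103, 2048 and 1131 on the Aohan arrays and 2309, 1837 and 1747 on the small tail Han arrays. The probes well above background numbered 10774, 13418 and 11941 in Aohan sheep and 12965, 11055 and 12582 in small tail Han sheep. Thus Aohan replicate 2 and small tail Han replicate 1 led their breeds in both measures. The part of array brightness in the spread of CFL1 and TPM1 was not tested.

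CNN1, the smooth muscle member, went the other way. Its intensity was 26631, 29602 and 24927 in Aohan sheep, against 94692, 91989.5 and 99136 in small tail Han sheep. Within each breed the 3 sheep were close before scaling, and no spot was saturated on any array. After scaling the log2 signal was 4.30 ± 0.40 in Aohan sheep and 5.61 ± 0.24 in small tail Han sheep (SD, n = 3 each), a difference of -1.31 (SE 0.24), with 0.76 log2 units between the nearest sheep of the breeds. Among the Aohan sheep, replicate 2 was lowest at 3.85, against 4.59 and 4.46 in replicates 1 and 3, and it is the sheep whose array had the highest 75th percentile of its breed.

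TNNC2 was measured near the background. At A_70_P029961 its intensity was 16.2, 46.0 and 24.5 in Aohan sheep, against 98.7, 77.6 and 119 in small tail Han sheep. At A_70_P029962 it was 23.96, 81.2 and 36.7 in Aohan sheep, against 138, 86.8 and 125 in small tail Han sheep. At both probes 2 of 3 Aohan arrays and 3 of 3 small tail Han arrays were well above background, and Aohan replicate 1 was the array that was not.

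The log2 difference of TNNC2 was -1.37 (SE 0.32) at A_70_P029961 and -0.95 (SE 0.30) at A_70_P029962, and the first probe passed in limma while the other did not. The breeds lay apart by 0.91 log2 units at the first probe and by 0.25 at the other. The signal of A_70_P029961 minus that of A_70_P029962 was -0.82 to -0.57 in Aohan sheep and -0.48 to -0.06 in small tail Han sheep, so the probes separated most in Aohan sheep, where both were dimmest. With normexp the differences were -0.54 and -0.47, and neither probe passed.

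PYGM differed little, and its probe shows how well the array repeats a dim measurement. The probe is printed 5 times on each array. The geometric mean of the spots was 62.3, 124 and 67.7 in Aohan sheep, against 174, 139 and 129 in small tail Han sheep. On the scaled log2 axis the breeds were at -4.09 ± 0.05 in Aohan sheep and -3.74 ± 0.02 in small tail Han sheep (SD, n = 3 each), a difference of -0.35 (SE 0.19) that did not pass in limma.

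The 5 spots of an array were close on some arrays and wide apart on others. Their SD was 0.68, 0.05 and 0.19 log2 units on the Aohan arrays and 0.16, 0.37 and 0.33 on the small tail Han arrays. On Aohan replicate 1, 1 spot read 27.4 and was not well above background, while the brightest read 92.8. Without that spot the value of Aohan replicate 1 was -3.85, against -4.05 and -4.06 in replicates 2 and 3, and -3.73, -3.72 and -3.76 in the small tail Han sheep. The difference was then -0.25, and the sheep of both breeds still did not overlap. This setting was chosen after the data were seen.

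**Figure D2:**
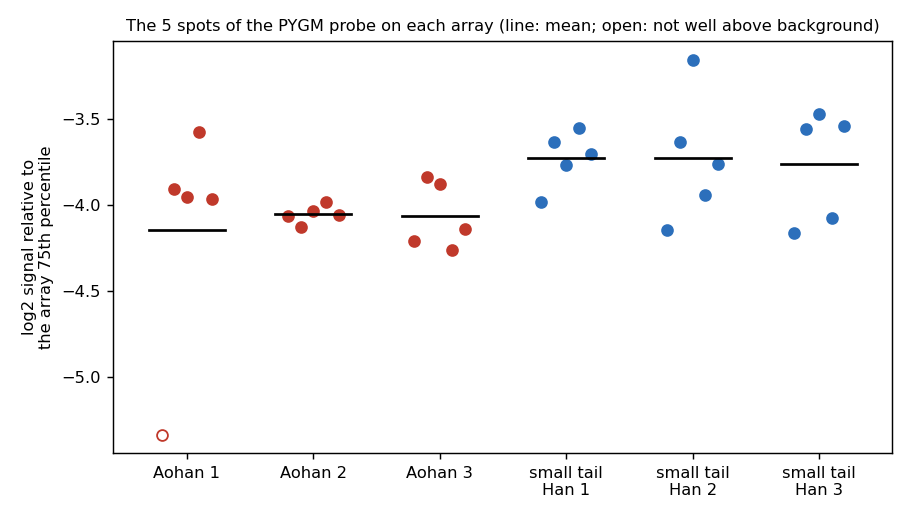
Log2 signal relative to the array's 75th percentile (vertical axis) of the 5 spots of the PYGM probe on each of the 6 arrays, Aohan left and small tail Han right. Points are spots, lines are their means and the open point is the spot not well above background. Spots of the breeds overlap, from -5.33 to -3.57 on Aohan replicate 1 and from -4.14 to -3.16 on small tail Han replicate 2, while the means do not.

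Other genes of contraction were taken from lists of muscle, actin and glycogen genes. These lists were drawn up with earlier results of these data known, and a gene stands at its brightest tested probe. In the smooth muscle list, 7 of 45 genes could be tested. Of these, 2 were higher (TPM1 and PTGFR), 1 was lower (CNN1) and 4 did not pass, with a median log2 difference of 0.22, against 0.02 over all tested probes. TPM1 and CNN1 were picked from this contrast, and without them 1 of 5 genes was higher and 0 were lower, where 15.2% of all tested probes passed. The list had 1 gene that passed when Aohan replicate 2 or 3 or small tail Han replicate 2 or 3 was left out, and 0 with the methods' t-test. Calponin and tropomyosin, both on this list, thus had differences of opposite sign.

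PTGFR, the receptor for prostaglandin F2alpha, which contracts smooth muscle, was the only gene of that list outside the 5 genes to pass. Its log2 signal was -3.31, -2.88 and -3.34 in Aohan sheep, against -3.73, -4.20 and -4.22 in small tail Han sheep. All Aohan sheep lay above all small tail Han sheep, by 0.88 on average (SE 0.23, limma adjusted p = 0.0376). PTGFR did not pass with normexp (adjusted p = 0.272), with the replicate number as a block (0.0858), with the methods' t-test or without small tail Han replicate 2 (0.143), small tail Han replicate 3 (0.131), Aohan replicate 2 (0.101) or Aohan replicate 3 (0.0846).

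The small heat shock protein CRYAB, the caveolar protein CAV1, the endothelin receptor EDNRA and the angiotensin receptor AGTR1 did not pass, with log2 differences of 0.22, 0.43, -0.18 and -0.20. CRYAB was bright, at 6.40, 5.76 and 6.29 in Aohan sheep and 5.75, 5.96 and 6.10 in small tail Han sheep, and the breeds overlapped. OXTR was not well above background on enough arrays to be tested. ACTA2, MYH11, TAGLN and DES, which define smooth muscle, are named by no RefSeq accession matched here and were not analysed. A_70_P018706, described by similarity as a smooth muscle myosin regulatory light chain, had a log2 difference of -0.93 (SE 0.20) and was picked after its values were seen.

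**Figure D3:**
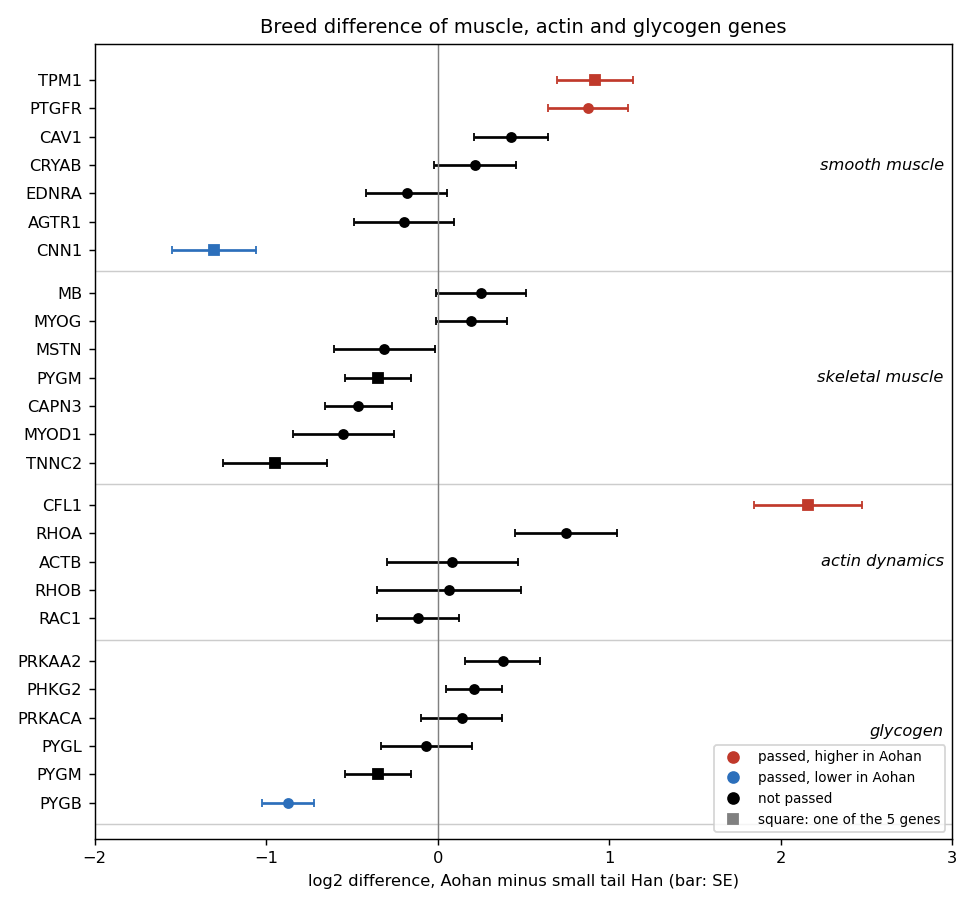
Log2 difference, Aohan minus small tail Han, with its SE (horizontal axis) for the tested genes of 4 lists, each at its brightest tested probe. Red and blue points passed in limma as higher or lower in Aohan sheep, black points did not, and squares are the 5 genes. CFL1 at 2.16 and CNN1 at -1.31 lie farthest from 0, and TNNC2 stands at its probe A_70_P029962, which did not pass.

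In the skeletal muscle list, 7 of 58 genes could be tested and 0 passed at the brightest probe in limma. At an unadjusted p under 0.05 there were 2 (TNNC2 and CAPN3), with the methods' t-test 1 (PYGM), and at any probe in limma 1 (TNNC2). The median log2 difference was -0.35. TNNC2 and PYGM were picked from this contrast. Without them 0 of 5 genes passed, with a median of -0.31, where 15.2% of all tested probes passed. Myoglobin (MB), which stores oxygen in striated muscle, was at -2.63 in Aohan sheep and -2.89 in small tail Han sheep at its brighter probe, a difference of 0.25 (SE 0.26, limma adjusted p = 0.572), and at -0.03 at its dimmer one. The muscle protease CAPN3 (-0.46), the growth inhibitor MSTN (-0.31) and the myogenic factors MYOD1 (-0.55) and MYOG (0.20) did not pass either. At CAPN3 and MYOD1 all Aohan sheep lay below all small tail Han sheep, while the breeds overlapped at MB, MSTN and MYOG. Over all tested probes the breeds lay apart at 34.2%. At the other CAPN3 probe the difference was -0.25 and the breeds overlapped. The summed linear signal of the 5 listed genes other than TNNC2 and PYGM, in multiples of the 75th percentile, was 0.33 to 0.46 in Aohan sheep and 0.34 to 0.45 in small tail Han sheep. These ranges overlap almost wholly, but the sum joins genes of opposite sign. MB, the brightest of the 5, and MYOG were higher in Aohan sheep, and CAPN3, MSTN and MYOD1 were lower.

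In the actin list, 5 of 68 genes could be tested. CFL1, picked from this contrast, was higher, and 0 of the other 4 genes passed, where 15.2% of all tested probes did. With CFL1 the median difference was 0.09, and without it 0.08. The GTPase RHOA, which acts upstream of cofilin and myosin, was at -0.80, -0.32 and -0.84 in Aohan sheep, against -0.70, -1.76 and -1.74 in small tail Han sheep. The breeds overlapped through small tail Han replicate 1, and the difference of 0.75 (SE 0.30) did not pass (limma adjusted p = 0.128), while RHOA did pass with normexp (adjusted p = 0.0067) and without small tail Han replicate 1 (adjusted p = 0.00891). The related GTPases RAC1 and RHOB differed by -0.11 (SE 0.24) and 0.07 (SE 0.42). The RHOB probe was dim, and well above background on 2 of 3 Aohan arrays and 3 of 3 small tail Han arrays. With normexp RHOB differed by 0.82 and did not pass. ACTB, the cytoplasmic actin that nearly all cells make, was read by a probe well above background on 1 of 3 Aohan arrays and 2 of 3 small tail Han arrays, and its difference of 0.09 had an SE of 0.38.

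Several glycogen genes were read at more than 1 probe. Of 6 tested genes of 31 listed, 1 was lower (PYGB) and 5 did not pass, with a median difference of 0.04. PYGM was picked from this contrast. Without it 1 of 5 genes was lower and 0 were higher, with a median of 0.14. Of all tested probes, 15.2% passed, 7.6% as lower. PYGB, the brain form of glycogen phosphorylase, was at -1.99, -1.68 and -1.72 in Aohan sheep, against -0.94, -0.93 and -0.90 in small tail Han sheep, at A_70_P012611. The 3 small tail Han sheep were nearly equal, and all 3 Aohan sheep lay below them, with a log2 difference of -0.87 (SE 0.15, limma adjusted p = 0.00659) at this probe and -0.85 (SE 0.17, adjusted p = 0.0135) at A_70_P012612. At A_70_P012612 the call was lost when small tail Han replicate 2 (adjusted p = 0.0617) or 3 (0.0565) was left out, and with the methods' t-test (0.0669). The liver form PYGL differed by -0.07 (SE 0.26, adjusted p = 0.898) at one probe and by -0.50 (SE 0.15, adjusted p = 0.0517) at another, A_70_P030422, where the breeds did not overlap and which passed with normexp (-0.71, adjusted p = 0.00468). PYGM, PYGB and PYGL are related in sequence, and whether a probe of one binds the mRNA of another was not tested. The kinase subunits PHKG2, PRKACA and PRKAA2 had log2 differences of 0.21, 0.14 and 0.38, and none passed.

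Markers of other cell types were followed because the make-up of a skin sample can differ. Among leukocyte markers, 3 of 7 tested genes were higher in Aohan sheep (CD3E, CD3D and ITGB2) and 0 were lower, and CD4 was not tested. Over all tested probes 7.57% were higher, and the methods' t-test called 0 of the 7 leukocyte genes. Their summed linear signal was 7.71 to 9.53 in Aohan sheep and 3.60 to 5.68 in small tail Han sheep, in multiples of the 75th percentile. These ranges do not overlap, and the part of leukocytes in the CFL1 and TPM1 differences was not tested. Without small tail Han replicate 2 none of these 3 genes passed at its brightest probe (adjusted p = 0.0633 for CD3E, 0.118 for CD3D and 0.0556 for ITGB2). CD3D, the weakest of them, also missed the threshold without Aohan replicate 1 (adjusted p = 0.0739), 2 (0.0606) or 3 (0.0767) or with small tail Han replicate 1 left out (0.0613), with the replicate block (0.0576) and without the intensity trend (0.0653). The second CD3E probe, A_70_P039467, did pass without small tail Han replicate 2 (limma adjusted p = 0.0497), but not with the methods' t-test. The second ITGB2 probe did not pass without that sheep (limma adjusted p = 0.121), and the second CD3D probe did not pass with all arrays (0.088).

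Of the other markers, 0 of 4 keratinocyte, 0 of 5 fibroblast, 0 of 3 adipocyte and 0 of 3 vascular endothelium genes passed limma. This held in either direction at any tested probe of these genes, while 15.2% of all tested probes passed. At an unadjusted p under 0.05 the brightest probe of 1 endothelial gene and of 0 genes of the other 3 lists passed, and the methods' t-test called 0. With normexp a second probe of the lipid droplet gene PLIN1, A_70_P014632, did pass (-0.78, adjusted p = 0.00173), and the breeds did not overlap there. The summed keratinocyte signal was 606 to 1114 in Aohan sheep and 723 to 994 in small tail Han sheep. The summed fibroblast signal was 175 to 291 in Aohan sheep and 199 to 295 in small tail Han sheep. The endothelial sum, from SELE, SELP and EDN1, was 0.40 to 0.44 in Aohan sheep and 0.33 to 0.42 in small tail Han sheep, and that of adipocytes was 6.64 to 11.6 in Aohan sheep and 7.64 to 10.51 in small tail Han sheep. All of these ranges overlap. The endothelial sum joins genes of opposite sign, since EDN1 differed by 0.63 and SELE and SELP by -0.39 and -0.35. The breeds did not overlap at any of these 3 genes, nor at 34.2% of all tested probes, and none of the 3 genes passed.

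Profiles over the 6 arrays were then compared with those of 604 probes of other named genes. The measure was the root-mean-square distance between profiles, each centred on its own mean, in log2 units. For CFL1, whose own profile had a spread of 1.16, the nearest genes were the glucose cotransporter SLC5A1 (0.24), the integrin ITGB1 (0.26) and lactoferrin LTF (0.30). For CNN1, with a spread of 0.71, they were LGALS15 (0.13), AHSG (0.17) and GKN1 (0.17).

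For TPM1, with a spread of 0.53, the nearest profiles were those of PTGFR (0.10), the gap junction gene GJB2 (0.14) and EDN1 (0.15), which encodes the vessel-constricting peptide endothelin 1. For TNNC2 at A_70_P029962, with a spread of 0.57, they were PYGB at A_70_P012612 (0.20), CCR3 (0.21) and LOC443035 (0.24). For PYGM, whose spread was only 0.18, they were STAR, FTO and SNRPA1, all at 0.09. The distances describe 6 arrays in which the breed sets most of the spread.

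**Figure D4:**
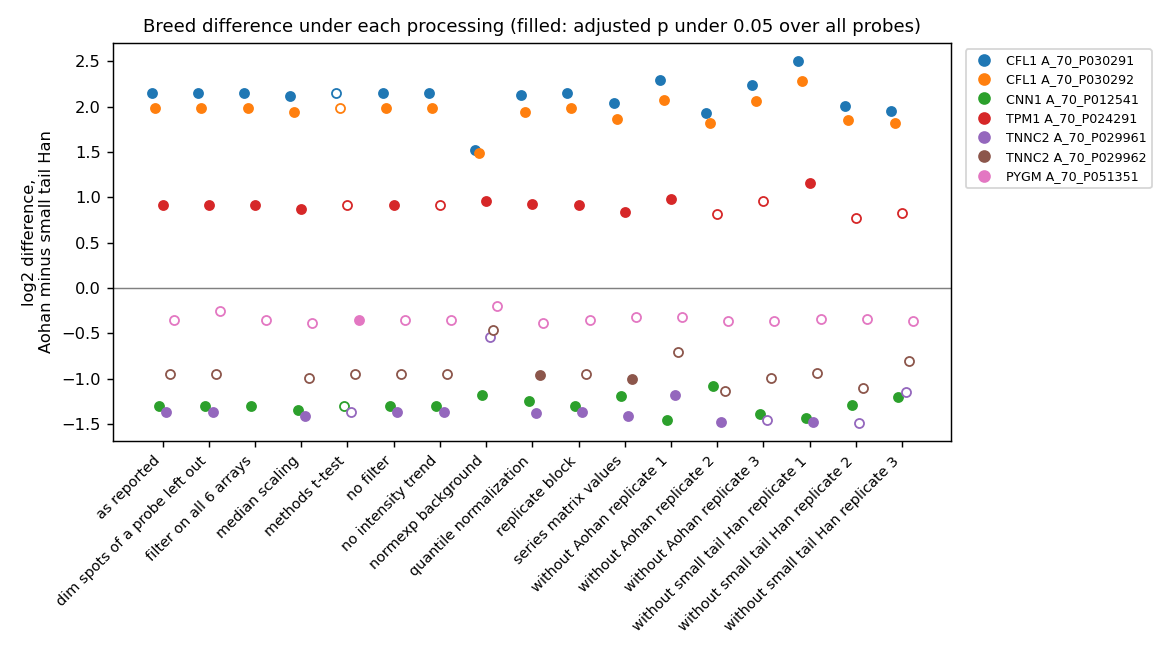
Log2 difference, Aohan minus small tail Han (vertical axis) at the 7 probes under each processing (horizontal axis), where filled points had an adjusted p under 0.05 over all probes. No point changes sign, and both CFL1 probes lie between 1.49 and 2.51. With the normexp background all probes but that of TPM1 move toward 0.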

How the data were processed

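The deposited scanner files hold Cy3 intensities, per the file headers from Feature Extraction 10.5.1.1 (Agilent), as background-subtracted values not normalized between arrays. The deposited value table is on a log2 scale, made comparable across arrays by the authors with a method not given in the sources used here. All 6 columns have the same median of 8.31 and the same maximum of 18.98. Whether the deposited values are independent of quantile normalization as an alternative was not tested.

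Without control spots and spots marked as outliers, log2 processed intensities were averaged by probe and each array's 75th percentile over the 15008 probes was taken off. A probe counted as well above background where no more of its spots failed than met the extraction software's mark. Those that met it on 3 or more arrays and had 2 or more values in each breed were tested with limma 3.58.1 in R 4.3.3 (intensity trend, two-sided, Benjamini-Hochberg over all tested probes). The fit was tested on simulated data. Replicates are separate animals of 1 sire per breed, and the number of arrays limits the precision.

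The accessions of 734 of 758 accession-bearing probes were found in the sheep reference ARS-UI_Ramb_v3.0, used for names only. The members and the 9 gene lists were chosen with earlier results of these data known. Named are all probes of the 5 genes, listed genes that passed, defining markers with a probe, and the 3 nearest profiles of each gene; other listed genes were named after their values were seen. Alternatives were quantile normalization, normexp (offset 50, on spot medians), median scaling, the series matrix, no filter, a filter on all 6 arrays, no trend, the replicate block, the methods' t-test, any probe of a gene and leaving out each array.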

Additional observations from a re-analysis of the deposited data

How the results depend on the processing

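The 7 probes of the 5 genes were recomputed in 110 combinations of probe and alternative. In 0 of these did the direction change, in 93 the call stayed, in 14 it was lost and in 3 it was gained. With the methods' t-test after Benjamini-Hochberg adjustment, CFL1 (2.16 and 1.99), CNN1 (-1.31), TPM1 (0.92) and TNNC2 A_70_P029961 (-1.37) did not pass while PYGM (-0.35) did. PYGM had an SD of 0.05 in Aohan sheep and 0.02 in small tail Han sheep. The Aohan SD includes the dim spot of replicate 1, without which that array read -3.85. The t-test called 712 probes (3234 at an unadjusted p under 0.05), 0 smooth muscle, 0 actin, 1 skeletal muscle and 2 glycogen genes. TPM1 also missed the threshold without the intensity trend (0.92). With normexp TNNC2 A_70_P029961 was lost at -0.54 and 2 actin genes passed, CFL1 and RHOA. TNNC2 A_70_P029962 passed with quantile normalization (-0.96) and with the series matrix values (-1.004), so that 1 skeletal muscle gene passed under both, as it did at any tested probe of a gene (1). The cause was not tested.

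Leaving out each array in turn gave 1.93 to 2.51 and 1.82 to 2.28 at the CFL1 probes, -1.45 to -1.08 for CNN1 and -0.37 to -0.32 for PYGM, with calls as before. TPM1 ranged from 0.77 to 1.16 and did not pass without Aohan replicate 2 (0.81) or 3 (0.96) or small tail Han replicate 2 (0.77) or 3 (0.83). TNNC2 ranged from -1.49 to -1.14 at A_70_P029961, not passing without Aohan replicate 3 (-1.46) or small tail Han replicate 2 (-1.49) or 3 (-1.14), and from -1.14 to -0.71 at A_70_P029962. The genes passing were 1 to 4 of the smooth muscle list, with 1 in each fit in which TPM1 missed the threshold, 1 to 2 of the actin list, with 2 lacking small tail Han replicate 1, 0 of the skeletal muscle list and 1 of the glycogen list. Over all probes 789 to 2248 passed, against 1893 with all arrays. The count was 1063 when Aohan replicate 3 was left out, and 789 and 944 for small tail Han replicates 2 and 3.

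Deviations from the breed mean had correlations of -0.22, -0.37 and 0.28 between samples sharing number 1, 2 and 3. Between samples of unlike number they ran from -0.30 to 0.47. Deviations within a breed sum to 0 over 3 sheep and so depend on each other. These correlations therefore cannot decide whether the numbers pair the sheep. The replicate block gave 1234 probes and changed no call at the 7 probes. The files name probes by accession, so adding probes named by description was not run.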

Other observations

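The study's own annotation describes further probes of the same machinery, but it covers only probes that the study found to differ, so these were picked after their values were seen. A_70_P018706, described by similarity to the chicken smooth muscle form of myosin regulatory light chain, the subunit whose phosphorylation starts smooth muscle contraction, was at 4.80, 4.30 and 4.62 in Aohan sheep, against 5.46, 5.44 and 5.61 in small tail Han sheep. Its log2 difference was -0.93 (SE 0.20), of the same sign as CNN1. A_70_P033911, described as similar to ARP3, a subunit of the complex that starts new actin branches, was at -1.30, -1.05 and -1.07 in Aohan sheep, against -1.79, -2.10 and -2.06 in small tail Han sheep, a difference of 0.84 (SE 0.16), of the same sign as CFL1.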
